A study of Mus musculus with 6 samples.

Results

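Cathepsins are the proteases of the lysosome, and cystatin C is a secreted protein that inhibits those of the cysteine class. Here 9 cathepsin genes (Ctsa, Ctsb, Ctsc, Ctsd, Ctsh, Ctsk, Ctsl, Ctss and Ctsz) and Cst3, the gene of cystatin C, were followed in 4T1 tumors, which grow from a mouse mammary carcinoma line used to model triple-negative disease. The genes were chosen by symbol, with their difference between the groups already known. All 10 had a row among the 23508 genes of the count table, and all 10 passed the filter on low counts that left 16755 genes. RNA was sequenced from 6 tumors. The study asked how transcripts change when neural activity sets in, so 3 tumors were taken ahead of its first peak (before-peak) and the other 3 on the peak day itself (with-peak). The labels name no treatment or genetic change, and host strain, age and tumor size were not given in the sources used here. Since the day of collection and the peak came together, they cannot be told apart.

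Most cathepsins, among them those of Ctsb, Ctsc, Ctsh, Ctsk, Ctsl, Ctss and Ctsz, are cysteine proteases made as inactive precursors. They are tagged with mannose 6-phosphate in the Golgi, carried to the lysosome and activated there by removal of the propeptide. Ctsd encodes an aspartic protease and Ctsa a serine carboxypeptidase. Macrophages are rich in several of them, fibroblasts and carcinoma cells also make some, and in tumors they are known both for protein turnover inside cells and for matrix breakdown outside them.

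The libraries held 10591067 to 14549357 counts, and the members took 0.419% to 0.519% of them before the peak and 0.569% to 0.697% with it. Levels are given as CPM, the usual depth-scaled count, computed with TMM-adjusted library sizes. Carcinoma keratins were abundant, with Krt8 and Krt18 in the lead and Krt8 at 1541 ± 139.7 CPM (SD, n = 3) in before-peak and 1343 ± 337 CPM in with-peak tumors. With-peak replicates 2 and 3 stood apart in skeletal muscle genes, with sums of 1419 and 1424 CPM against 59.9 to 285 CPM in the other 4 libraries, and in red cell genes, with sums of 1457 and 2154 CPM against 137 to 277 CPM. With-peak replicate 1, at 277 CPM of red cell genes, was also above the before-peak tumors, at 137 to 250 CPM. Before-peak replicate 3 stood apart in B and plasma cell genes, at 789 CPM against 20.8 to 263 CPM. Gene coordinates are those of GENCODE M21 on GRCm38. Because whole tumors were sequenced, fewer cells of a type and less RNA per cell cannot be told apart.

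All 10 transcripts had higher means in the with-peak tumors, from Ctsk at 3.19 times the before-peak level to Ctsl at 1.07 times. The median log2 fold change of the 10 was 0.53, where that of all tested genes was -0.02. All 10 were above 0 with TMM, with RLE size factors and with library size alone. Among all tested genes, 47.7% were above 0 with TMM, the share beside which sign counts of lists below stand. These values are a description, since the members were picked with this contrast known. By the edgeR quasi-likelihood test with adjustment over all genes 0 of the 10 passed as higher, as did 0% of all genes. At an unadjusted p under 0.05, 9 of the 10 were higher (6.12% of all genes), DESeq2 called 3, namely Ctsb, Ctsk and Ctss (1.48% of the genes it adjusted), and 7 had groups that did not overlap, all higher with peak (8.13% of all genes, with 7.38% separated in the lower direction). Nothing is read from these counts.

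**Figure D1:**
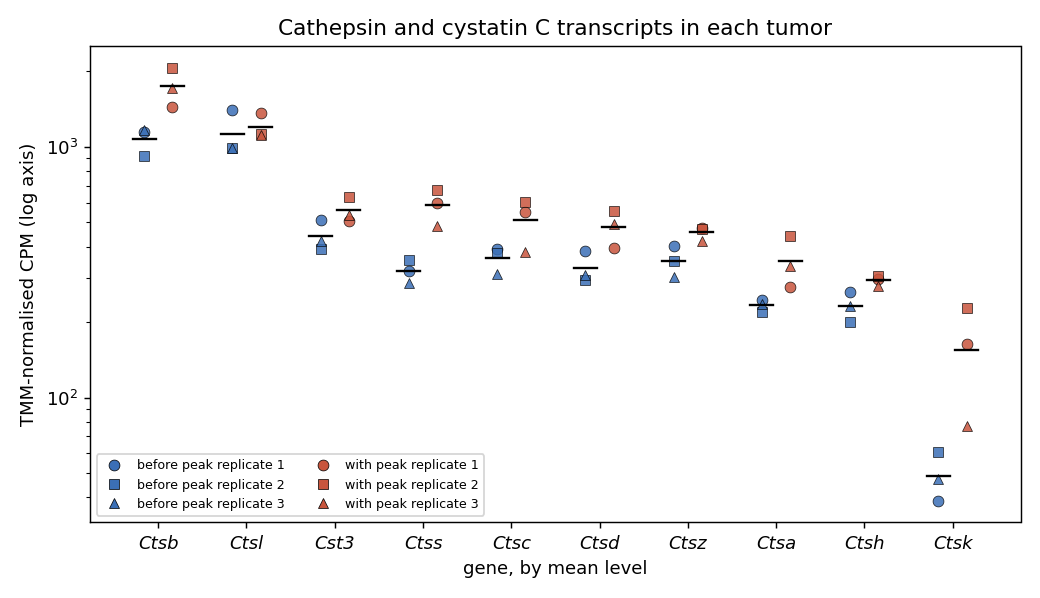
TMM-normalised CPM of each gene in each of the 6 tumors on a log axis, with blue symbols for before-peak and red for with-peak tumors, the symbol shape giving the replicate and black lines the group means. Ctss and Ctsk lie higher in all 3 with-peak tumors than in any before-peak tumor, while the groups of Ctsl, Ctsc and Cst3 overlap.

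Among the cysteine endopeptidases, Ctsk differed most. Ctsk, the collagen-cleaving cathepsin of osteoclasts that fibroblasts and macrophages can also make (ENSMUSG00000028111, chromosome 3, 95499256 to 95509362, plus strand), was at 38.8, 60.4 and 47.2 CPM in before-peak replicates 1, 2 and 3. The with-peak tumors, in the same order of replicate, held 163, 227 and 76.9 CPM. The groups did not overlap, but with-peak replicate 3 lay nearer to the highest before-peak tumor than to the other with-peak tumors. Its log2 fold change of 1.67 (SE 0.41) was the widest of the members. Ctsk had the widest spread of the members among with-peak tumors, with an SD of 48.4% of its mean.

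Ctss, the endopeptidase that trims the invariant chain of MHC class II molecules in antigen-presenting cells (ENSMUSG00000038642, chromosome 3, 95526786 to 95556403, plus strand), was at 319, 354 and 286 CPM in the before-peak tumors, and at 599.6, 672 and 483 CPM in the with-peak tumors. Every with-peak tumor was above every before-peak tumor. This made a log2 fold change of 0.87 (SE 0.14), which stayed between 0.76 and 1.00 over the 14 alternative settings. Ctss lies next to Ctsk on the same strand, with a gap of 17423 bases and 0 other genes of the count table between them. Cd74, the invariant chain itself, was at 618 ± 280.3 CPM on average without the peak, against 1121 ± 223 CPM with it (edgeR adjusted p = 0.567 at a log2 difference of 0.86, SE 0.39).

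Ctsb, which acts both as an endopeptidase and as a dipeptidyl carboxypeptidase (ENSMUSG00000021939, chromosome 14, 63122462 to 63145923, plus strand), was the most abundant member in with-peak tumors by CPM. It was at 1151, 916 and 1163 CPM in the before-peak tumors, and at 1443, 2072 and 1724 CPM in the with-peak tumors. The groups did not overlap, and with-peak replicate 2 was the highest. On the log2 scale the fold change was 0.70 (SE 0.15). Exons of Ctsb share 774 bases with Fdft1 on the opposite strand, which was at 65.2 CPM on average without the peak, against 72.9 CPM with it.

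Ctsl, a broadly expressed endopeptidase of the papain family (ENSMUSG00000021477, chromosome 13, 64359337 to 64370890, minus strand), was the exception. It was at 1406, 994 and 988 CPM in the before-peak tumors, and at 1365, 1128 and 1117 CPM in the with-peak tumors. The groups overlapped, with before-peak replicate 1 the highest of the 6 tumors. Its log2 fold change was 0.09 (SE 0.16), and without with-peak replicate 1 it was -0.0043. Ctsl shares 1742 exonic bases with the antisense gene Gm47123, which was at 3.11 and 3.74 CPM in the groups. It also shares 395 bases with the pseudogene Gm49230, which had no row in the count table. Set against each other, Ctss per Ctsl was 0.227 to 0.356 in before-peak and 0.433 to 0.596 in with-peak tumors in CPM, with no overlap between the groups. Ctsb per Ctsl, at 0.819 to 1.18 and 1.06 to 1.84, and Ctsk per Ctss, at 0.122 to 0.171 and 0.159 to 0.338, overlapped.

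The cysteine exopeptidases lay between Ctsl and Ctsb in log2 fold change. Ctsc, the dipeptidyl peptidase that activates the serine proteases of granules in neutrophils, mast cells and cytotoxic lymphocytes (ENSMUSG00000030560, chromosome 7, 88278085 to 88310888, plus strand), was at 392, 376 and 312 CPM in the before-peak tumors, and at 551, 603 and 381 CPM in the with-peak tumors. With-peak replicate 3 lay within the before-peak range, so the groups overlapped. This gave a log2 fold change of 0.51 (SE 0.18). Of its substrates, Gzmb, the granzyme B of cytotoxic lymphocytes, was at 2.57, 6.73 and 3.83 CPM in the before-peak tumors, and at 30.0, 14.6 and 7.37 CPM in the with-peak tumors (edgeR adjusted p = 0.390 at a log2 difference of 1.99, SE 0.57), and is named here after its values were seen. Neutrophil markers summed to 411 to 926 CPM in before-peak and 535 to 765 CPM in with-peak tumors. T and NK cell markers summed to 15.4 to 162 and 50.2 to 66.8 CPM, so both sums overlapped. Of the 9 neutrophil markers tested, 8 had a log2 fold change above 0 (median 0.59), while Mmp9, the most abundant, was at -0.40 (SE 0.55). At an unadjusted p under 0.05, 4 of the 9 were higher (6.12% of all genes), and DESeq2 called 0. Of the 9 T and NK cell markers tested, 3 were above 0 (median -0.52).

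Ctsh, an aminopeptidase (ENSMUSG00000032359, chromosome 9, 90054152 to 90076089, plus strand), was at 264, 201 and 232 CPM in the before-peak tumors, and at 299, 306 and 279 CPM in the with-peak tumors. Its groups did not overlap, and the lowest with-peak tumor was just above the highest before-peak tumor. Ctsh had a log2 fold change of 0.34 (SE 0.12). Ctsz, a carboxypeptidase that can bind integrins (ENSMUSG00000016256, chromosome 2, 174427493 to 174439039, minus strand), was at 402, 349.7 and 302 CPM in the before-peak tumors, and at 474, 471 and 423 CPM in the with-peak tumors. The groups did not overlap here either. Ctsz had a log2 fold change of 0.38 (SE 0.13). The SD of Ctsh and Ctsz among with-peak tumors was 4.87% and 6.23% of the mean, the smallest of the 10 genes.

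Ctsd, the aspartic protease of the lysosome (ENSMUSG00000007891, chromosome 7, 142375911 to 142388038, minus strand), was at 385, 295 and 308 CPM in the before-peak tumors, and at 396, 555 and 491 CPM in the with-peak tumors. The groups did not overlap, though the first replicates of both groups were close. The log2 fold change was 0.55 (SE 0.15). Ctsd shares 808 exonic bases with Gm49369 on the same strand, which had no row in the count table.

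Ctsa, the serine carboxypeptidase also called protective protein because it stabilises neuraminidase and beta-galactosidase (ENSMUSG00000017760, chromosome 2, 164832873 to 164841032, plus strand), was at 246, 219 and 237 CPM in the before-peak tumors, and at 275, 442 and 335 CPM in the with-peak tumors. The before-peak tumors lay close together, and all with-peak tumors were above them. This came to a log2 fold change of 0.58 (SE 0.17). Exons of Ctsa share 495 bases with Pltp and 324 with Neurl2, both on the opposite strand, and the libraries were not stranded. Pltp was at 84.6 CPM on average without the peak, against 206 CPM with it (log2 fold change 1.29), and its part in the Ctsa value was not tested. Of the partners in the complex, both named after their values were seen, Neu1 had a log2 fold change of 0.41 (SE 0.13), at an adjusted p of 0.390 by edgeR, and Glb1 had one of -0.09 (SE 0.13), at an adjusted p of 0.872 by edgeR.

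When with-peak replicates 2 and 3 were left out for their muscle and red cell genes, the log2 fold change was 0.23 for Ctsa, 0.42 for Ctsb and 0.26 for Ctsd. For Ctss it was then 0.90 and for Ctsk 1.73. This setting was chosen after seeing the data and leaves a single with-peak tumor, which is assumed to vary like the others. The median over the 10 genes was 0.39, and all 10 remained above 0, with Ctsl at 0.27 and Cst3 at 0.20.

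Cst3, the gene of cystatin C (ENSMUSG00000027447, chromosome 2, 148871722 to 148875692, minus strand), was at 509, 393 and 421 CPM in the before-peak tumors, and at 508, 634 and 535 CPM in the with-peak tumors. The first replicates of both groups were nearly level, so the groups overlapped. Cst3 had a log2 fold change of 0.34 (SE 0.14). Relative to the sum of the 7 cysteine cathepsins, Cst3 was 0.121 to 0.128 in CPM before the peak and 0.104 to 0.119 with it, without overlap. Per kb of principal transcript that ratio was 0.301 to 0.334 in before-peak and 0.259 to 0.318 in with-peak tumors, with overlap, so its separation rests on how the genes are weighted.

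**Figure D2:**
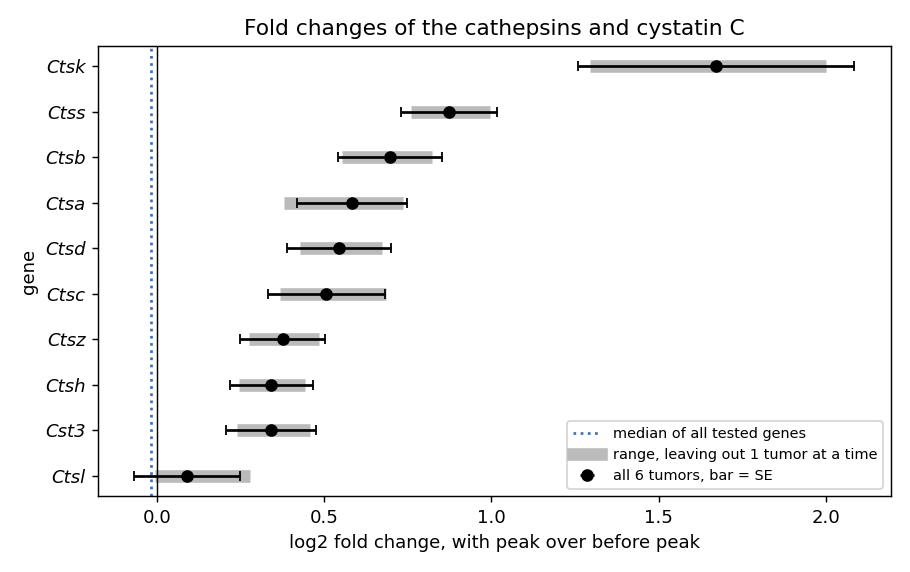
Log2 fold change of with-peak over before-peak tumors for each gene, with the SE as a bar and the range over fits that leave out 1 tumor at a time in grey; the dotted line is the median of all tested genes. Ctsk lies at 1.67 and Ctsl at 0.09, the only gene whose grey range reaches 0.

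Summed over the 10 genes, the level was 5112, 4158 and 4296 CPM in the before-peak tumors, and 6073, 7109 and 5845 CPM in the with-peak tumors. Every with-peak tumor was above the before-peak tumors, and the ratio of the means was 1.40. Within that sum the share of Ctsl was 27.5%, 23.9% and 23.0% before the peak, against 22.5%, 15.9% and 19.1% with peak. Its share was thus lower in every with-peak tumor, although its own level overlapped. The share of Cst3 was lower too, at 8.37% to 9.15% against 9.45% to 9.96%, and those of the other 8 genes overlapped between the groups. A member that differs less than the sum has a lower share by construction. Since the members were chosen with the contrast known, these shares restate it and are a description.

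Levels of different genes were compared per length, as CPM per kb of all annotated exons merged. On this scale Cst3 was highest before the peak, at 348 ± 47.9 CPM per kb (SD, n = 3), followed by Ctsz at 244 ± 34.9 and Ctss at 235 ± 24.9. Ctsz and Ctss did not differ beyond their spread, since their ranges overlapped. Ctsb at 178 ± 23.0, Ctsl at 174 ± 36.9 and Ctsd at 140.1 ± 20.6 CPM per kb came next, each overlapping its neighbour. Ctsc, Ctsh and Ctsa, at 62.0, 51.6 and 49.6 CPM per kb, overlapped likewise, and Ctsk was last at 32.3 ± 7.20, below all of them. With peak, Ctss at 431 ± 70.1 CPM per kb overlapped Cst3 at 441 ± 52.2, and Ctsk at 103 ± 49.8 overlapped Ctsc, Ctsa and Ctsh.

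The order depends on the length used, because the merged exons of some genes are much longer than their principal transcript. For Ctsl the merged exons cover 6489 bases and the shortest APPRIS principal transcript 1971 bases. Per kb of principal transcript, a measure added after seeing the data, Ctsl was highest before the peak at 573 ± 121 CPM per kb, with Cst3 next at 513 ± 70.5 and overlapping ranges. With peak, Cst3 was at 649.8 ± 76.8 and Ctsl at 611 ± 71.3 CPM per kb, again with overlap. Before the peak Ctsk was last on both scales.

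**Figure D3:**
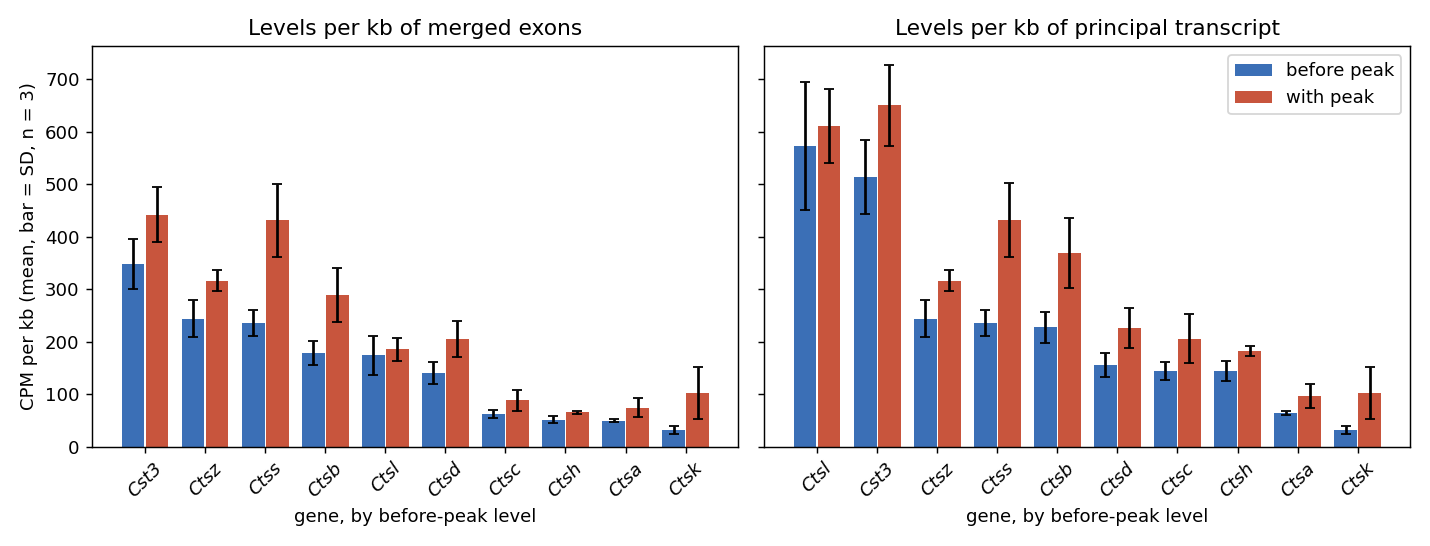
Mean level of each gene in CPM per kb before the peak (blue) and with it (red), bars giving the SD over 3 tumors, with merged exons as the length on the left and the principal transcript on the right. Cst3 leads on the left before the peak at 348 CPM per kb, and Ctsl leads on the right at 573 CPM per kb.

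Variation within the groups does not hold the contrast between them, so it was looked at apart from it. For each gene, log2 CPM was expressed as the deviation from its group mean, which leaves 4 degrees of freedom over the 6 tumors, and no test was made. Of the 45 pairs of members, 38 had a positive Pearson r, with a median of 0.36 and a range from -0.22 to 0.93. The share of positive pairs among other genes was not computed, so whether this likeness is particular to the members was not tested. The members did not vary as a single block. Ctsa, Ctsb, Ctsd and Cst3 varied together, with r from 0.78 for Ctsa and Cst3 to 0.93 for Ctsd and Cst3. Ctsc, Ctss and Ctsk formed a second set, with r of 0.93 for Ctsc and Ctss, 0.89 for Ctss and Ctsk and 0.81 for Ctsc and Ctsk. Ctsl went with Ctsz at 0.80 and with Ctsh at 0.74. Ctsh was also tied to Cst3 of the first set, at 0.80, and Ctsz to Ctsc of the second, at 0.74. Ctsl reached at most 0.43 with a gene of either set, for Cst3. The 10 genes thus did not fall into sharply separate sets.

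The sets were formed after the values were seen. Between the first set and the second, r was at most 0.42, for Ctsc and Cst3, with 0.03 for Ctsb and Ctsk and -0.11 for Ctsd and Ctsk. The tumors in which the first set and the second parted can be seen among with-peak replicates, where replicate 3 deviated by -0.88 in Ctsk, -0.40 in Ctsc and -0.26 in Ctss but by 0.05 in Ctsd and -0.06 in Cst3, all in log2 units. With-peak replicate 1 deviated by -0.32 in Ctsa, -0.26 in Ctsb and -0.27 in Ctsd but by 0.20 in Ctsk. Genes measured in 1 tumor share its library and its composition. Against the mean deviation of the macrophage markers, r was 0.87 for Cst3, 0.84 for Ctsb, 0.80 for Ctsh, 0.76 for Ctsa and 0.70 for Ctsd. It was 0.50 for Ctsc, 0.37 for Ctsk, 0.31 for Ctss and Ctsz and 0.27 for Ctsl. Ctsa and Ctsb also went with the fibroblast markers, at 0.88 each. Against the skeletal muscle genes r was 0.93 for Ctsd, 0.77 for Cst3, 0.68 for Ctsa and 0.62 for Ctsb. For Ctsz it was 0.40, for Ctsh 0.37, for Ctsl 0.19, for Ctsc -0.01, for Ctss -0.05 and for Ctsk -0.34. Against the carcinoma epithelial markers r ran from -0.77 for Ctsb to 0.20 for Ctsz, with Ctsl at 0.07 and the other genes below 0. The part of these cell types in the pattern was not tested.

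**Figure D4:**
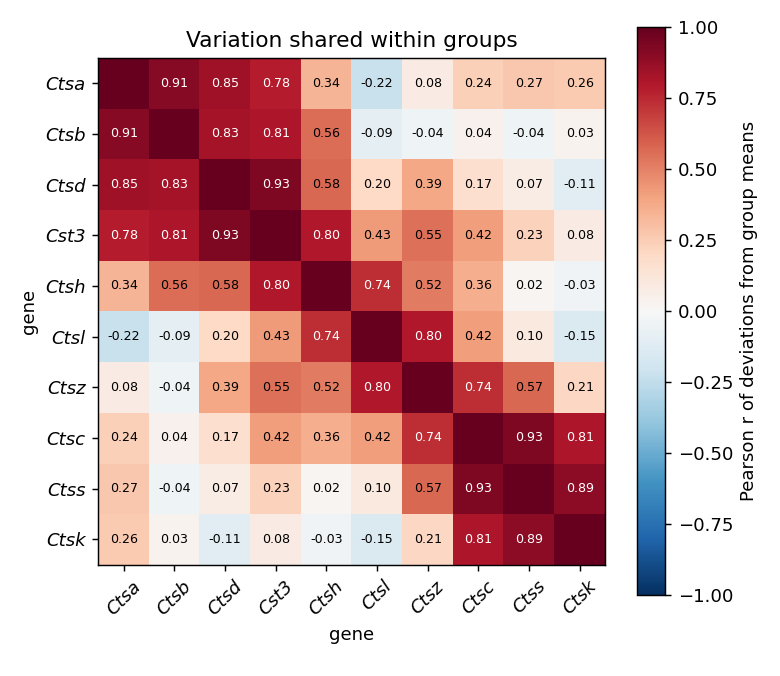
Pearson r between genes of their deviations from the group means in log2 CPM over 6 tumors, in red for positive and blue for negative values. Ctsa, Ctsb, Ctsd and Cst3 at the upper left and Ctsc, Ctss and Ctsk at the lower right each form a block with r of 0.78 or more.

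Of 10772 other genes with a mean of at least 10 CPM, the 5 whose within-group deviations had the highest mean r to the 10 members were Hsbp1 (0.67), Mtmr10, Fbxw5 and Mtf1 (each 0.67) and Ube2d-ps (0.66). Hsbp1, a binding partner of heat shock factor, had a log2 fold change of 0.31 (SE 0.14), at an adjusted p of 0.523 by edgeR. The other 4 had log2 fold changes from -0.04 to 0.24. None of these 5 passed the edgeR test.

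Promoter sequence was looked up because members varied together and the rule did not use it. RefSeq windows of GRCm38.p6, from 250 bases before to 50 after a gene's start, were held for 8 of the 10 genes, in 9 windows. They were searched on both strands for 7 short motifs. The CLEAR core TCACGTGA, which contains the E-box CACGTG and is known as the element that TFEB and its relatives bind in lysosomal genes, occurred in Ctsa and Ctsd, and in 0.974% of all 32851 windows. The letters GAGGAAG, the core of sites for the myeloid factor PU.1, occurred in Ctsc, Ctsk and Ctss, and in 13.6% of all windows. These windows are shown 5′ to 3′ in the direction of the gene, with capitals marking the E-box or CLEAR core, the PU.1 core and, in Ctss, the M-box TCATGTGA, on either strand.
Ctsa (chr2:164833523-164833822, plus strand): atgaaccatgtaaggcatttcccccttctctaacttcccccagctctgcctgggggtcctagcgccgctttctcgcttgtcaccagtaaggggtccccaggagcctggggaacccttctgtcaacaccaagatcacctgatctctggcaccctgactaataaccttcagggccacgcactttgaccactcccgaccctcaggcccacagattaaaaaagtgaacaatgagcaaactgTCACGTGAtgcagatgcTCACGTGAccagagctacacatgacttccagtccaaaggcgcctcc
Ctsd (chr7:142387778-142388077, minus strand): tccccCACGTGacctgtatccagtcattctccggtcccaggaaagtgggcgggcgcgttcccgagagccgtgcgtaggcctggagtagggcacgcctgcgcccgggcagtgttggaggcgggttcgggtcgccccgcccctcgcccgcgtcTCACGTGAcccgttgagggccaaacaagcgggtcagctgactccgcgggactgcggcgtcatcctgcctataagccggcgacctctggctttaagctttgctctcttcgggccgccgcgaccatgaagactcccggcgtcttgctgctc
Ctsc (chr7:88277835-88278134, plus strand): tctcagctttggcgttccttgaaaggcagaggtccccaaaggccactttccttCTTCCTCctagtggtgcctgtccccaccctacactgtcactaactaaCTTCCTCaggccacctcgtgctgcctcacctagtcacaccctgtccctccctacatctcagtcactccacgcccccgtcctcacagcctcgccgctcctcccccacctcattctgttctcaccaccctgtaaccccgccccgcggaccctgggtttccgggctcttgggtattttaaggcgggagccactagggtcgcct
Ctss (chr3:95526536-95526835, plus strand): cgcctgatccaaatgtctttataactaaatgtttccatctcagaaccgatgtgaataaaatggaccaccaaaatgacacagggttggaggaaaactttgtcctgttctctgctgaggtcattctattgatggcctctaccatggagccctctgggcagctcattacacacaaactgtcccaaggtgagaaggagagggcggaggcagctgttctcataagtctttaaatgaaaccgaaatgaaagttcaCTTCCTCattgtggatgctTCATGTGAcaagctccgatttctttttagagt
Ctsk (chr3:95498960-95499259, plus strand): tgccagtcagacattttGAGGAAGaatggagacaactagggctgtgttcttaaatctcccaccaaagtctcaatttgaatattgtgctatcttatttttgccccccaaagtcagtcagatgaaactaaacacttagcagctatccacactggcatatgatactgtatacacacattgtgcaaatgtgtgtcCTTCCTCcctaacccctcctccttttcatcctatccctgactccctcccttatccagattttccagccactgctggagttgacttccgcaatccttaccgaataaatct

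In this Ctsa window the CLEAR core begins at -13 and again at 5 from the start, and in Ctsd it begins at -99. The other Ctsa window held none of the 7 motifs. PU.1 core letters lay on the minus strand at -197 and -150 in Ctsc and at -1 in Ctss, and in Ctsk at -233 on the plus strand and -59 on the minus strand. The M-box of Ctss began at 19 and is found in 0.986% of windows. Ctsl held an E-box at -236 (7.15% of windows), while the Ctsz and Cst3 windows held neither E-box, M-box nor PU.1 core letters. The AP-1 letters TGANTCA occurred in 0 of the 8 genes (7.81% of windows), GC-box letters GGGCGG in 5 (35.7%) and TATAAA in Ctss alone (13.6%). A match is a string of letters and shows no binding, and RefSeq's start sites can differ from those of GENCODE.

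Other genes of the lysosome were taken from lists drawn up by role, and none passed the edgeR test. Of the transcription factors of lysosomal genes, all 6 tested had a log2 fold change above 0, or 5 of 6 with library size alone, and the median was 0.19. Usf1, Usf2 and Tfe3, the most abundant, had log2 fold changes of 0.12, 0.00 and 0.18. Mitf, the relative of TFEB that acts in osteoclasts and macrophages, was at 8.67, 9.47 and 7.58 CPM in the before-peak tumors, and at 15.99, 21.9 and 18.9 CPM in the with-peak tumors. Its groups did not overlap, and the log2 fold change was 1.14 (SE 0.21), at an adjusted p of 0.118 by edgeR. DESeq2 called Mitf and 0 others of that list (1.48% of all genes it adjusted were higher), and Mitf is named after its values were seen.

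Of the lysosomal peptidases other than cathepsins, 9 of 10 had a log2 fold change above 0 (median 0.36), 4 were higher at an unadjusted p under 0.05 (6.12% of all genes) and 2 were called higher by DESeq2 (1.48%). Lgmn, the legumain that processes cathepsin precursors, was at 415 ± 27.6 CPM on average without the peak, against 608 ± 91.3 CPM with it (edgeR adjusted p = 0.235 at a log2 difference of 0.55, SE 0.13). Scpep1, a serine carboxypeptidase, differed by 0.44 in log2 (SE 0.10) and Tpp1, a tripeptidyl peptidase, by 0.16 (SE 0.13). Lysosome membrane genes had 8 of 8 above 0, or 6 of 8 with library size alone, with a median of 0.37 and log2 fold changes of 0.38 for Lamp1, 0.36 for Lamp2 and 0.04 for Cd63. Of these 8, 5 were higher at an unadjusted p under 0.05, beside 6.12% of all genes. Slc11a1 and Cd68 were the 2 called higher by DESeq2, beside 1.48%, and are named after their values were seen.

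The genes that deliver hydrolases to the lysosome had a median log2 fold change of 0.07. Of these, 11 of 16 were above 0 (47.7% of all genes), or 8 of 16 with library size alone. Igf2r, the large mannose 6-phosphate receptor, was at 333, 326 and 295 CPM in the before-peak tumors, and at 290.2, 199.7 and 258 CPM in the with-peak tumors. Its groups did not overlap and it was lower with peak, with a log2 fold change of -0.35 (SE 0.14), at an adjusted p of 0.502 by edgeR. M6pr, the small receptor, differed by 0.13 in log2 (SE 0.10) and Vps35, a retromer subunit, by 0.00 (SE 0.11). M6pr separated too, in the higher direction, at 147 to 159.8 CPM against 160.1 to 174 CPM, and in all 2 genes of the list separated as higher and 1 as lower (8.13% and 7.38% of all genes). In this list 0 genes were higher and 1 was lower at an unadjusted p under 0.05 (3.38% of all genes were lower), and DESeq2 called 0.

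Of the other cathepsins, 5 of 15 were tested, 4 of them with a log2 fold change below 0 and a median of -0.35. Ctso was at 31.7 ± 3.91 and 29.5 ± 2.48 CPM, Napsa at 14.4 ± 10.2 and 11.3 ± 2.98 CPM and Ctsf at 10.3 ± 3.83 and 15.2 ± 6.13 CPM (SD, n = 3), the before-peak value first. Their groups overlapped, none reached an unadjusted p under 0.05, and 0 were called by DESeq2. Of other inhibitors, 10 of 25 were tested and 8 had a log2 fold change above 0 (median 0.40). Cstb, the stefin B that inhibits cathepsins in the cytosol, was at 179 ± 11.5 and 224 ± 5.75 CPM (edgeR adjusted p = 0.393 at a log2 difference of 0.33, SE 0.10), and Serpinb6a, a serpin of the cytosol, was at 269 ± 19.6 and 362 ± 25.01 CPM, with a log2 fold change of 0.43 (SE 0.11). Those 2 were the genes of the list that were higher at an unadjusted p under 0.05 (6.12% of all genes), and DESeq2 called 0. Stfa2l1, a stefin of neutrophils, had a log2 fold change of 0.45 (SE 0.63).

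Of the partners and substrates, 9 of 11 were tested, with a median log2 fold change of 0.66 and 7 of 9 above 0. Psap, the precursor of the saposins that cathepsins cleave, was at 1422, 1440 and 1248 CPM in the before-peak tumors, and at 2166, 2346 and 1978 CPM in the with-peak tumors. Its groups did not overlap, and the log2 fold change was 0.66 (SE 0.11), at an adjusted p of 0.0997 by edgeR. Unc93b1, the carrier of the endosomal Toll-like receptors that cathepsins cleave, had one of 0.68 (SE 0.15), at an adjusted p of 0.189 by edgeR. DESeq2 called Psap, Unc93b1 and Gzmb higher in this list (1.48% of all genes it adjusted), and 4 of the 9 were higher at an unadjusted p under 0.05 (6.12% of all genes).

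Macrophage markers were also at higher levels in with-peak tumors. Of the 24 markers, 23 were tested and all 23 had a log2 fold change above 0, with a median of 0.73, while edgeR called 0 of them after adjustment. At an unadjusted p under 0.05, 19 were higher (6.12% of all genes), and DESeq2 called 11 (1.48%). Their summed level was 4081 to 6453 CPM in before-peak tumors and 7277 to 10906 CPM in with-peak ones, with no overlap, and 0 of the 24 were at 0 in every library. Cd68 stands on this list and on that of lysosome membrane genes. Apoe and Lyz2, the most abundant and so the largest parts of the summed level, had log2 fold changes of 0.82 and 0.95. Per unit of summed macrophage marker CPM, Ctsb was 0.178 to 0.224 in before-peak and 0.190 to 0.211 in with-peak tumors, and Ctss 0.0494 to 0.0867 and 0.0593 to 0.0824, so that for both genes the with-peak range lay inside the before-peak range. On that scale Ctsl and Cst3 were lower with peak without overlap, Ctsl at 0.190 to 0.244 against 0.103 to 0.188 and Cst3 at 0.0789 to 0.0963 against 0.0581 to 0.0698. Ctsk was 0.00602 to 0.0148 in before-peak and 0.00944 to 0.0224 in with-peak tumors, with overlap. Ctsa, Ctsc, Ctsd, Ctsh and Ctsz overlapped too, with lower means with peak. Their with-peak means were 0.87, 0.84, 0.87, 0.77 and 0.78 times the before-peak means, in that order. The same quotient of means was 0.96 for Ctsb, 1.06 for Ctss and 1.76 for Ctsk. The part of the macrophage markers in the members' values was not tested beyond these ratios.

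For Ctsk, markers of osteoclasts and fibroblasts were set beside it. The 7 osteoclast markers with a row summed to 141 to 162 CPM in before-peak tumors and 137 to 271 CPM in with-peak ones, with overlap. Acp5, the tartrate-resistant phosphatase that macrophages also make, was at 85.9 ± 13.2 and 131 ± 47.7 CPM, which makes 0.61 in log2 (SE 0.27). Nfatc1, the transcription factor of osteoclast differentiation, was at 44.3 ± 6.75 and 42.6 ± 10.1 CPM, which makes -0.05 in log2 (SE 0.19), and both genes overlapped between the groups. Of the 6 osteoclast markers tested, 5 had a log2 fold change above 0 (median 0.51), beside 47.7% of all genes, and Nfatc1 was the 1 below. At an unadjusted p under 0.05, 2 of the 6 were higher (6.12% of all genes). In CPM, 1 was higher without overlap (8.13%), and DESeq2 called 0. Ctsk per summed osteoclast marker was 0.275 to 0.374 in before-peak and 0.562 to 0.837 in with-peak tumors, with no overlap. The 12 fibroblast markers summed to 7229 to 12233 CPM in before-peak tumors and 9304 to 18148 CPM in with-peak ones, with overlap. Col3a1 and Col1a1 were in the lead, and 0 markers were at 0 in every library. Of the 12, 11 had a log2 fold change above 0 (median 0.53), beside 47.7% of all genes. At an unadjusted p under 0.05, 2 of them were higher (6.12% of all genes), and DESeq2 called 1 (1.48%). Ctsk per summed fibroblast marker was 0.00386 to 0.00836 in before-peak and 0.00709 to 0.0175 in with-peak tumors, with overlap. The sums of endothelial markers (508 to 616 and 488 to 979.96 CPM) and dendritic cell markers (62.6 to 109 and 74.7 to 97.2 CPM) overlapped too. All 10 endothelial markers had a log2 fold change above 0 (median 0.31), as had 3 of the 9 dendritic cell markers (median -0.48). Carcinoma epithelial markers summed to 3858 to 5050 CPM in before-peak tumors and 3210 to 4687 CPM in with-peak ones, with overlap. Of these 12 markers, 2 had a log2 fold change above 0 (median -0.20), or 0 with library size alone. At an unadjusted p under 0.05, 3 were lower (3.38% of all genes), and 3 were lower without overlap (7.38%). DESeq2 called 1 of them lower, namely Krt5 (0.146% of the genes it adjusted), which is named after its values were seen. The part of these cell types in the Ctsk value was not tested.

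**Figure D5:**
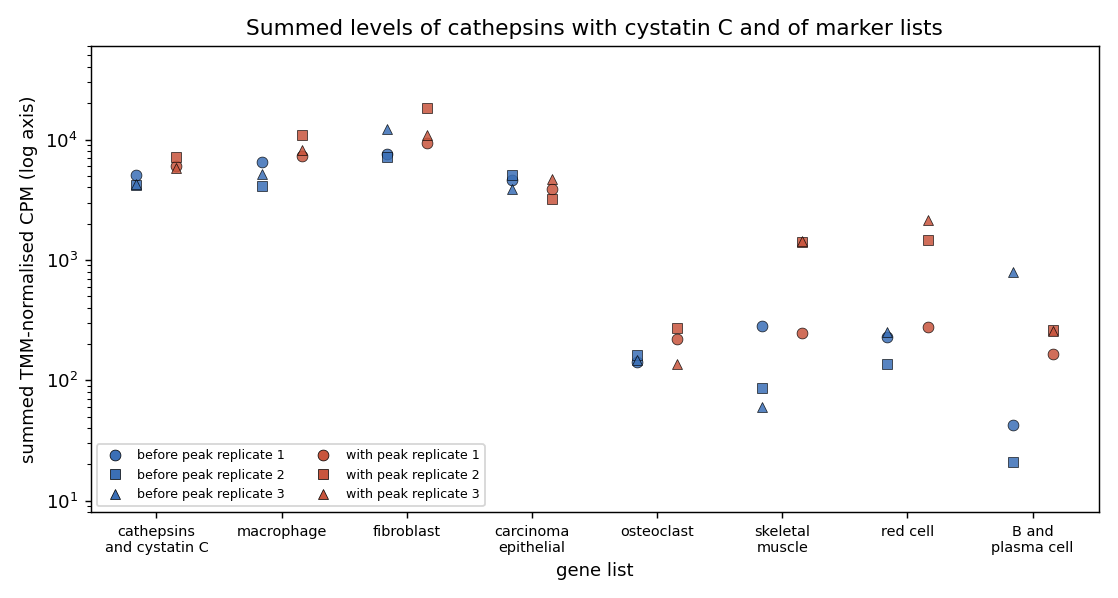
Summed TMM-normalised CPM, on a log axis, of the 10 cathepsin and cystatin C genes and of 7 cell type marker lists in each of the 6 tumors, in blue before the peak and red with it. The members and the macrophage markers are higher in every with-peak tumor, while skeletal muscle genes are high in with-peak replicates 2 and 3, at 1419 and 1424 CPM.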

How the data were processed

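Per the labels' protocols, Trizol RNA of 6 frozen tumors went through oligo(dT) selection into unstranded libraries read from both ends. The authors deposited unnormalised counts for each gene in 1 column per tumor. FastQC, STAR and the mm10 build are named in the submitters' processing notes. Read counter and annotation were not given in the sources used here.

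Of 23508 identifiers 23479 matched GENCODE M21 (GRCm38), which gave symbols, coordinates and exon lengths. Total counts were 10591067 to 14549357, so a member rests on at least 484 counts per library. Genes were kept by filterByExpr (minimum count 10, minimum total 15). The main test was the edgeR 4.0.16 quasi-likelihood test (robust, two-sided, TMM) with Benjamini-Hochberg adjustment over 16755 genes and a threshold of 0.05, in R 4.3.3, first tested on simulated counts. DESeq2 1.42.0 and limma-voom (limma 3.58.1) were alternatives. SE is the log2 fold change divided by the square root of F. Within-group deviations used log2 CPM with a prior count of 2.

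Members and lists were chosen with earlier results of these data known. Genes named from lists are the 3 most abundant tested, or the 2 most abundant for cell type markers, and others are stated as chosen after their values were seen. Chi-square per degree of freedom between libraries of the same group was 17.1 to 28.9, so none was a duplicate. The labels do not say whether tumors came from separate animals, so a p-value here reflects the spread among these samples, which may be technical.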

Additional observations from a re-analysis of the deposited data

How the results depend on the processing

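Over all genes the edgeR test called 0 genes, as it did with RLE size factors, library size alone, at least 1 CPM in 3 libraries, and without with-peak replicates 2 and 3, and limma-voom called 0 too. No filter on low counts called 29 genes (26 higher, 3 lower) and DESeq2 called 266 (242 higher, 24 lower), and the cause was not tested. Leaving out 1 library called 0 to 17 genes, all higher and none of them a member: 17 when before-peak replicate 2 was left out, 13 for before-peak replicate 3 and 9 for with-peak replicate 1. A replicate block in the fit called 1 gene, which was not a member. Same-numbered tumors had deviations from their group means that correlated at -0.06, -0.10 and 0.03, while differently numbered ones ran from -0.09 to 0.16. The numbers thus showed no pairing, though correlations over all genes cannot exclude one that moves few genes. Over the fits that leave out 1 library, Ctsl ran from -0.0043 (with-peak replicate 1 left out) to 0.2794 (before-peak replicate 1 left out), and no other member changed sign under the 14 settings. The median log2 fold change of the members ran from 0.38 to 0.60. The summed level and the median within-group r moved by less than their spread under every setting run for them. With 3 tumors per group the precision is limited by the spread among samples rather than by counting, since members had 484 counts or more in each library. That spread may be technical.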
